A study of Mus musculus with 6 samples.

Results

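Transcripts of voltage-gated calcium and sodium channels and of related cation and chloride channels were examined in the suprachiasmatic nucleus (SCN) of mice exposed at night to a light pulse or to a sham one. The members were every probe set with a single gene symbol in the families Cacna, Cacnb, Cacng, Scn, Hcn, Trpc, Trpm, Trpv, Clcn, Cnga and Cngb, which came to 88 of 22626 probe sets and 60 of 12393 genes. A current RefSeq gene table held 82 mouse genes with such symbols, and the other 22 were not analysed here. A further 2 probe sets carried several symbols and were left out. The symbol pattern also took in Trpc4ap, a protein that associates with the channel TRPC4 and is not itself a channel.

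The light pulse group received 2400 lux for 30 minutes from 1 hour after lights off, and the sham light pulse group stayed in the dark over the same 30 minutes. All were adult male C57BL/6 mice aged 2 to 4 months, kept singly under 14 hours of light and 10 hours of dark, and no other genotype or drug was given. The labels also give a Zeitgeber time for the pulse that falls before lights off if counted from lights on in that cycle, so times are given here relative to lights off. Brains were taken when the pulse ended, 1.5 hours after lights off, and the SCN was cut from 12 μm sections with a laser capture microscope. Each group had 3 Affymetrix Mouse 430A 2.0 arrays, and each array held RNA pooled from 3 mice (18 sections). From each pool 1 ng of total RNA went through 2 rounds of amplification, and RNA integrity numbers are given as about 6.8. The sources do not say whether a mouse entered more than 1 pool, so the p-values refer to the spread between these pools. For each probe set that spread was moderated toward the one typical of probe sets with similar signal. The printed standard errors and intervals are moderated in the same way.

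Voltage-gated calcium channels have a pore-forming alpha1 subunit (Cacna1 genes) that opens on depolarization, with beta and alpha2delta subunits that carry it to the membrane and tune its gating. Sodium channel alpha subunits drive the upstroke of the action potential, Hcn channels pass an inward current on hyperpolarization, and Trp channels are cation channels with diverse triggers. SCN neurons fire action potentials in a daily rhythm, and calcium entry through L-type channels is known to contribute to their pacemaking, while calcium signals carry the response to retinal glutamate. Several Clcn genes encode chloride/proton exchangers of endosomes rather than surface channels, and Cng genes encode the cyclic nucleotide-gated channels of photoreceptors and olfactory neurons.

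The tissue was checked first with markers. Of 12 listed markers of SCN neurons 11 were measured and all 11 were kept for testing. Vip, which encodes vasoactive intestinal polypeptide, had signals from 43194 to 64589 after the light pulse and from 30271 to 41960, without overlap, after the sham light pulse. Grp did not overlap either, with 6807 to 7297 against 5949 to 6751, a narrow gap. Over all 6739 kept genes, 5.74% had all light pulse signals above all sham light pulse signals and 4.38% had them all below. Every other measured marker of the list did overlap, among them Gad1, with 8440 to 11824 after the light pulse and 9310 to 11126 after the sham light pulse. Calb1 had 6323 to 9022 after the light pulse and 6897 to 9093 after the sham light pulse. Some markers of other cells were present as well. The 5 measured oligodendrocyte markers summed to 36562 to 50804 after the light pulse and to 27874 to 52879 after the sham light pulse, with overlap. Most of each sum was Mbp, and Mog was not kept (14.2 to 156.7). The 6 astrocyte markers summed to 20556 to 27987 after the light pulse and to 19433 to 28190 after the sham light pulse, most of it from Gja1. The 6 microglial markers summed to 5380 to 6348 after the light pulse and to 5801 to 6881 after the sham light pulse. Most of each sum was Csf1r, and Aif1 (2.7 to 38.0) and Cx3cr1 (13.2 to 151.1) were not kept. Those of endothelium and pericytes summed to 1081 to 1565 after the light pulse and to 1611 to 2286 after the sham light pulse, without overlap. Of the 3 kept markers in this sum, Flt1 alone did not overlap, with 72.6 to 291.6 against 325.5 to 511.7. Cldn5 and Pdgfrb did overlap, and Pecam1 stayed at or below 22.2 on every array. The 4 measured choroid plexus markers summed to 110638 on light pulse replicate 3, nearly all of it from Ttr, and to between 129.8 and 335.9 on the other 5 arrays. Kl, Folr1 and Kcne2 were not kept, but each was also highest on light pulse replicate 3 (72.7, 147.3 and 95.6). In such tissue, fewer cells of a type cannot be told apart from less RNA per cell.

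Channel probe sets passed the filter on low signals less often than the probe sets of the array as a whole, as a description with no test. Signals are in the arbitrary units of the Affymetrix MAS5 algorithm. Probe sets were ranked by their rank 3 signal, the third of the 6 signals in falling order, and those of highest rank were kept down to a value of 118.2. The group labels had no part in that filter. Of the 88 channel probe sets 26 were kept (29.5%, against 45.7% of all probe sets), and these covered 22 of the 60 genes (36.7%, against 54.4% of all genes). On every array 19 of the 26 lay at or above 118.2, and 7 dipped below it on at least 1 array. None of the 26 had passed through the arrays of 1 group alone. The kept probe set nearest to the limit had a rank 3 signal of 126.3 (Trpc7) and the nearest one left out had 110.6 (Cacnb1). Different probe sets bind their targets with different strength, so signals were compared between arrays for each probe set and not between genes. For 14 of the 22 channel genes with several probe sets, some were kept and some were not. A probe set left out therefore does not show that its gene was silent in the SCN.

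**Figure D1:**
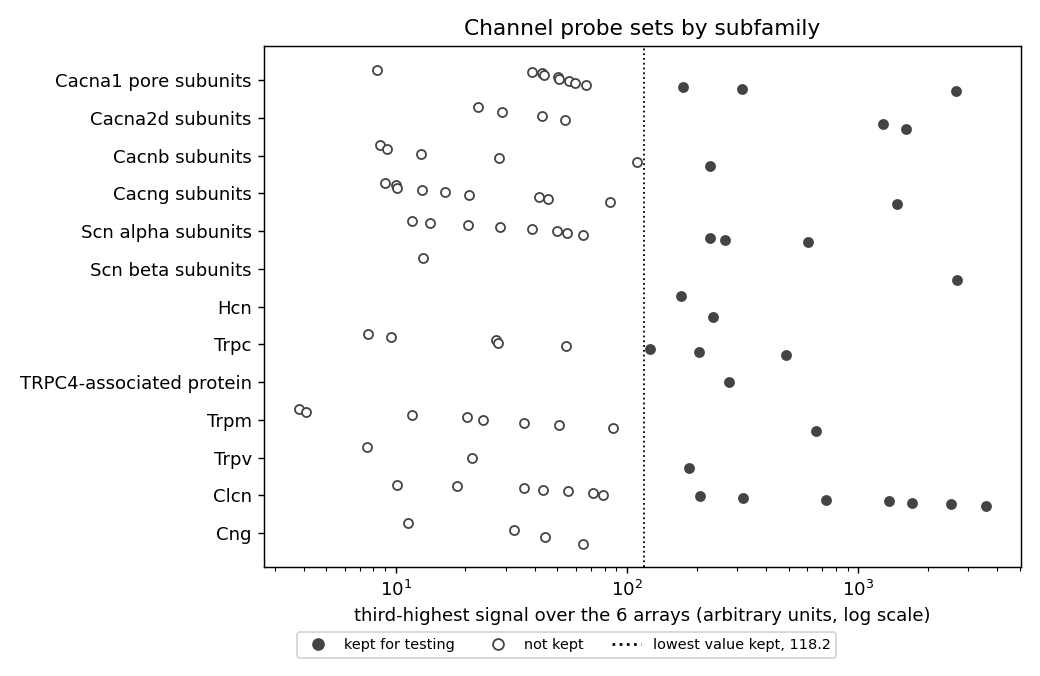
Rank 3 signal over the 6 arrays (arbitrary units, log scale) of each of the 88 channel probe sets, by subfamily. Filled points are the 26 probe sets kept for testing, open points the 62 others, and the dotted line is the lowest value kept, 118.2. No Cng probe set lies to its right.

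The pore-forming calcium channel subunits showed 3 of 9 genes among those kept. Cacna1d encodes an L-type channel that opens at relatively negative potentials. Its signals were 2355, 3507 and 2016 after the light pulse, against 2646, 1524 and 2980 after the sham light pulse. The groups overlapped, and the ratio of geometric means was 1.11-fold with a 95% confidence interval from 0.700 to 1.77. The second Cacna1d probe set stayed between 11.2 and 76.6 on all arrays, near the floor, so the high signal rested on 1 probe set whose ID ending (_s_at) marks targets shared by several transcripts.

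Cacna1g encodes a T-type channel, a low-threshold channel that supports burst firing. It had signals of 309.2, 314.8 and 352.4 after the light pulse, against 194.8, 181.1 and 336.9 after the sham light pulse. The light pulse arrays lay close together, and 1 sham light pulse array fell among them (1.42-fold, 0.821 to 2.47). Cacna1a, the P/Q-type pore subunit of many presynaptic terminals, had 169.3, 131.9 and 213.4 after the light pulse and 217.9, 174.0 and 110.2 after the sham light pulse. These ranges nearly coincided. The 6 genes that were not kept were Cacna1b (N-type), Cacna1c (L-type), Cacna1e (R-type), Cacna1f and Cacna1s, known from retina and skeletal muscle, and Cacna1h (T-type). Their highest single signal was 158.6, for Cacna1c on sham light pulse replicate 2.

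Auxiliary calcium channel subunits were kept for 4 of 14 genes. The alpha2delta gene Cacna2d2 had signals of 1275, 2396 and 1270 after the light pulse, against 2242, 1167 and 1104 after the sham light pulse, so that 1 array of each group stood well above the rest (1.10-fold, 0.657 to 1.85). Its relative Cacna2d3 had 1114, 1544 and 1656 after the light pulse, against 1150, 1604 and 2107 after the sham light pulse (0.902-fold, 0.577 to 1.41). Cacna2d1, the target of gabapentin together with Cacna2d2, was not kept, with signals from 14.1 to 124.3 over its 2 probe sets.

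Cacnb4, whose loss causes epilepsy and ataxia in lethargic mice, was the only kept beta subunit. It had signals of 229.5, 109.6 and 85.8 after the light pulse, against 283.1, 288.4 and 130.2 after the sham light pulse. Of the 26 kept probe sets it had the lowest fold change, 0.588-fold, with an interval from 0.267 to 1.29, and on 2 light pulse arrays it lay below the lowest value kept. Cacng5, which belongs to the gamma group that accompanies AMPA-type glutamate receptors, had 1585, 1638 and 751.8 after the light pulse, against 1333, 1477 and 1321 after the sham light pulse. Light pulse replicate 3 was the low array here, and the other 2 exceeded every sham light pulse signal (0.909-fold, 0.561 to 1.47). The other 7 Cacng genes were not kept, and their highest single signal was 163.1, for Cacng2.

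Among sodium channels, 3 of 8 alpha subunit genes and Scn3b, the only beta subunit gene measured, were kept. The alpha genes were Scn1a, Scn2a and Scn8a, the main types of the adult brain. Scn2a had signals of 747.5, 604.2 and 353.8 after the light pulse, against 674.9, 510.3 and 522.3 after the sham light pulse (0.961-fold, 0.581 to 1.59). Scn8a, the type found at nodes of Ranvier, had 458.7, 188.7 and 104.6 after the light pulse, against 151.0, 514.1 and 265.7 after the sham light pulse. The signal of Scn8a spread about as widely within each group as over all 6 arrays.

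Scn1a, a type prominent in inhibitory interneurons, had 144.3, 295.0 and 357.6 after the light pulse, against 149.9, 227.9 and 150.5 after the sham light pulse (1.44-fold, 0.733 to 2.81). The lowest of the 6 Scn1a signals was on a light pulse array, so the groups overlapped. Scn3b varied least of all. Its signals were 2517.5, 2681.5 and 2313 after the light pulse, against 2831, 2179 and 2892 after the sham light pulse, and its standard error of 0.24 on the log2 scale was the smallest of the 26 kept channel probe sets (0.957-fold, 0.665 to 1.38). The sodium channels of peripheral sensory neurons, Scn9a, Scn10a and Scn11a, were not kept, nor were Scn3a, a type of the developing brain, and Scn7a, a sodium-sensing relative found in glia. None of these 5 genes passed 78.1 on any array.

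Both measured Hcn genes were kept, and both lay near the floor. Hcn2 had 189.4, 170.4 and 204.2 after the light pulse, against 114.9, 146.3 and 170.9 after the sham light pulse. The groups overlapped by a single pair of nearly equal signals, 170.4 and 170.9 (1.32-fold, 0.675 to 2.58). Hcn3 had 232.0, 234.4 and 235.4 after the light pulse, against 169.8, 147.1 and 289.5 after the sham light pulse (1.21-fold, 0.658 to 2.22). The 3 light pulse signals of Hcn3 were almost equal and lay inside the sham light pulse range.

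The Trp family had 6 kept genes of 15, counting Trpc4ap. Trpc1, which forms receptor-operated channels with other Trpc subunits, had signals of 425.7, 590.0 and 781.0 after the light pulse, against 353.3, 435.3 and 485.3 after the sham light pulse. It overlapped through the lowest light pulse array alone (1.38-fold, 0.849 to 2.24). Trpc4 had 205.2, 170.7 and 131.1 after the light pulse, against 219.2, 214.5 and 139.8 after the sham light pulse (0.887-fold, 0.457 to 1.72). Trpc7 crossed the floor within each group, with 94.5, 52.2 and 137.1 after the light pulse and 152.5, 8.7 and 126.3 after the sham light pulse. Its standard error of 1.16 on the log2 scale was the largest of the kept channel probe sets. Trpc4ap had 336.6, 276.6 and 112.3 after the light pulse, against 166.9, 214.4 and 311.2 after the sham light pulse.

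The groups did not overlap for Trpm7 and Trpv2. Trpm7 encodes a magnesium- and calcium-permeable channel fused to a protein kinase. Its signals were 504.5, 423.3 and 609.2 after the light pulse, against 656.8, 800.0 and 656.5 after the sham light pulse, or -0.47 ± 0.29 (SE) as a log2 fold change. Trpv2, a cation channel of the vanilloid group, had 198.0, 238.1 and 185.2 after the light pulse, against 162.6, 139.7 and 181.9 after the sham light pulse, or 0.36 ± 0.42 (SE) as a log2 fold change. Neither passed limma's test (adjusted p = 0.960 for Trpm7 and 0.961 for Trpv2). Among the 22 kept channel genes, 1 had all light pulse signals above all sham light pulse signals, where 5.74% of the 6739 kept genes did, and 1 had them all below, where 4.38% did. With quantile normalization 0 of the 22 genes had groups without overlap. The other 2 Trpm7 probe sets and Trpm6, the closest relative of Trpm7, were not kept.

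**Figure D2:**
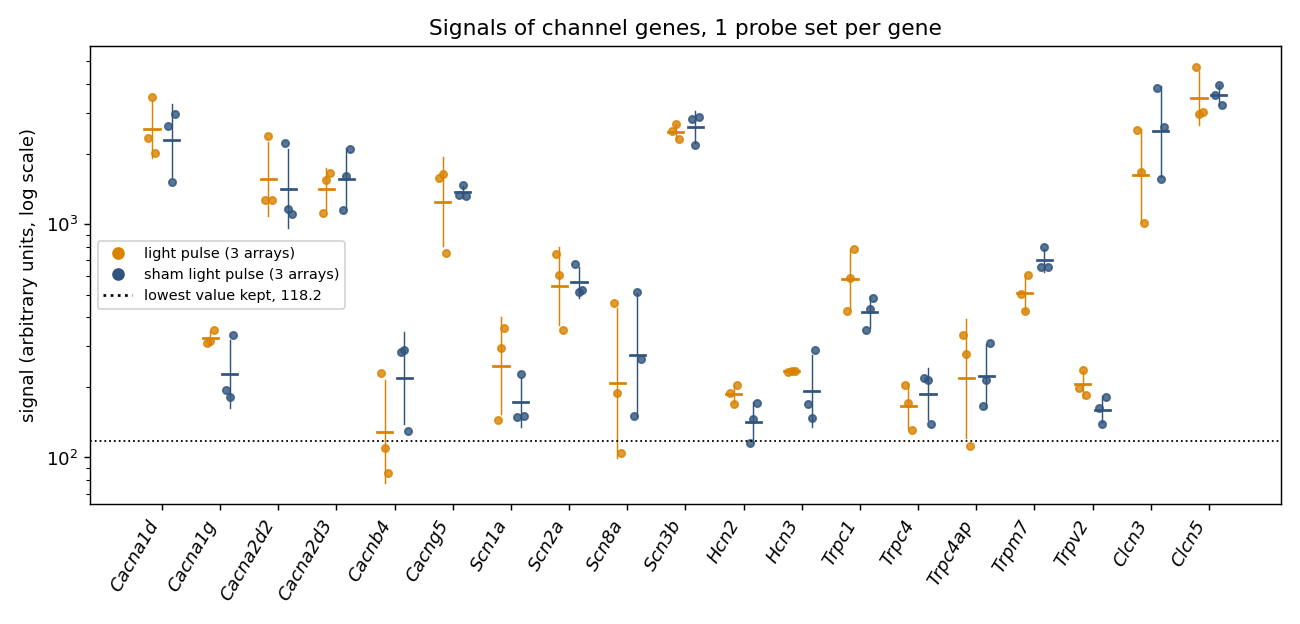
Signals (arbitrary units, log scale) of 19 channel genes, with 1 point per array. Across each column the short bar is the mean log2 signal and the upright line its SD (3 light pulse arrays, left of each pair, and 3 sham light pulse arrays, right), and the dotted line is the lowest value kept, 118.2. The points of the groups separate for Trpm7 and Trpv2 and overlap for the other 17 genes.

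The Clcn genes had 7 kept probe sets of 14, from 3 of 7 genes, all 3 of them members of the endosomal exchanger group. Clcn5, mutated in the kidney disorder known as Dent disease in humans, had signals of 4740, 2961.5 and 3027 after the light pulse, against 3577, 3973 and 3246 after the sham light pulse (0.973-fold, 0.665 to 1.42). That probe set has the ID ending _x_at, which marks probes shared with other sequences. The second kept Clcn5 probe set, without such an ending, had 256.4, 219.6 and 202.7 after the light pulse, against 207.0, 87.8 and 143.8 after the sham light pulse. It had the highest fold change of the 26, 1.63-fold, with an interval from 0.818 to 3.27, and the third Clcn5 probe set was not kept.

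Clcn3, an exchanger found on endosomes and synaptic vesicles, was read by 3 kept probe sets. At the one of highest signal, which also ends in _x_at, it had 2526, 1676 and 1010 after the light pulse, against 3831, 1559 and 2623 after the sham light pulse (0.649-fold, 0.370 to 1.14). The other 2 gave -0.28 ± 0.31 and -0.50 ± 0.37 (SE) as log2 fold changes, so all 3 had the same sign. They did not follow the same arrays: sham light pulse replicate 2 was the highest of the 6 at one of them, with 2647, and the lowest sham light pulse array at the other two.

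Clcn4, a close relative, was named after its values were seen, because 1 of its 2 kept probe sets had the smallest unadjusted p of the 26 (adjusted p = 0.960 from limma). That probe set had 274.1, 317.1 and 219.4 after the light pulse, against 608.0, 375.9 and 309.6 after the sham light pulse, or -0.63 ± 0.36 (SE) as a log2 fold change. The other had 957.4, 1362 and 1568 after the light pulse, against 760.7, 1964 and 1068 after the sham light pulse, or 0.12 ± 0.35 (SE). The Clcn4 readings differed in sign, and neither passed. Clcn1, the chloride channel of skeletal muscle, Clcn2, Clcn6 and Clcn7 were not kept, and no Cng gene was, with at most 87.6 on any array for Cnga1, Cnga2, Cngb1 and Cngb3. Markers of retina and muscle were also not kept, 0 of 4 measured.

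Because the study asked whether light-induced genes share a cAMP response element (CRE), the letters of that element were looked up in the channel promoters. The measure is not the study's. The study scored elements with matrices over a longer stretch before the start codon and required conservation across mammals. Here exact letters were sought in mouse alone. RefSeq promoters (GRCm38.p6), running from 250 bases before to 50 bases after each annotated start, were found for 51 of the 60 genes, 68 promoters in all. The palindrome TGACGTCA, which reads the same on both strands, was in 2 of the 68 (2.94%), those of Clcn3 and Clcn4, where 1.79% of 32851 promoters held it. The letters TATAA, on either strand, were in 14 of the 68 (20.6%), where 24.9% of all promoters held them. The element of Clcn3 did not lie wholly before the start and is not shown. The element of Clcn4 began 76 bases before the start, and the window around it, on chromosome 7 and the minus strand at chr7:7299600-7299659, is printed with the CRE letters in capitals.
Clcn4: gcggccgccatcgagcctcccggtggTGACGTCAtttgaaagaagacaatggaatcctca

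No channel probe set was called at the end of the light pulse, the only time sampled on these arrays. Of the 26 kept, 12 had positive and 14 negative log2 fold changes, 0 passed limma at an adjusted p under 0.05, and their adjusted p ran from 0.960 to 0.994. Over all kept probe sets 7 were called (0.0677%), all of them with positive fold changes. At an unadjusted p under 0.05 limma gave 0 of the 26 and Cyber-T 0, where 4.31% of all kept probe sets reached that level with limma. The median log2 fold change was -0.03 for the channel probe sets and 0.00 for all kept probe sets, and the median of its absolute size was 0.32 and 0.26.

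The intervals give a range for the fold change of each probe set at an unadjusted 95% level. They do not give the size of change needed for a call, which was judged by the adjusted p. All 26 point estimates lay within 2-fold, and all 26 intervals held 0. With 1 array left out, Cacnb4 passed 2-fold without light pulse replicate 1 (log2 fold change -1.18) and without sham light pulse replicate 3 (-1.14), Trpc7 passed it in 3 of the 6 fits and the second Clcn5 probe set in 1, and intervals for Clcn3 left out 0 without light pulse replicate 1 or sham light pulse replicate 2. For 9 of the 26 (34.6%) the whole 95% interval also lay within 2-fold, where 42.5% of all kept probe sets had such an interval. Each of these bounds is for 1 probe set at a time. The 9 included Cacna1d, Cacna2d2, Cacna2d3, Cacng5, Scn2a and Scn3b. At a wider limit of 4-fold, 25 of the 26 intervals lay inside it, and Trpc7 was the exception. The median standard error of the channel probe sets was 0.37 and that of all kept probe sets 0.36, both on the log2 scale. The 9 channel probe sets with at least 500 units on every array had standard errors from 0.24 to 0.38, and the other 17 had 0.29 to 1.16.

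**Figure D3:**
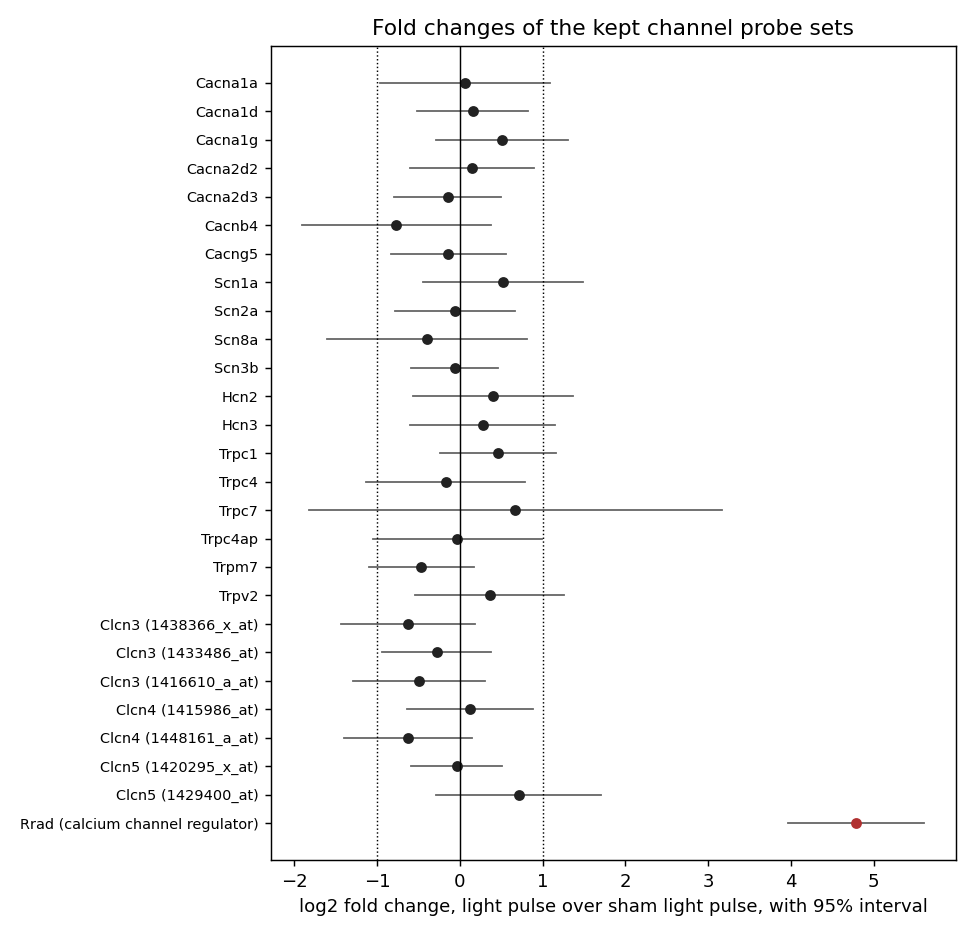
Log2 fold changes (light pulse over sham light pulse) of the 26 kept channel probe sets, with 95% confidence intervals from limma and dotted lines at 2-fold in either direction. All 26 intervals cross 0, while Rrad, shown in the lowest line for scale, has an interval from 3.97 to 5.61.

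The channel probe sets were unevenly low across arrays, most often on light pulse replicate 3. On that array 9 of the 26 kept probe sets (34.6%) had their lowest signal of the 6 arrays, against 18.3% of all kept probe sets. They belonged to Cacnb4, Cacng5, Scn2a, Scn8a, Trpc4, Trpc4ap, Clcn4 and, with 2 probe sets, Clcn3. The same array carried the Ttr signal of 110323, where the other 5 arrays had at most 295.6, and its median correlation with the others, 0.898, was the lowest of the 6. Whether these go together was not tested. Sham light pulse replicate 2 was lowest for 7 of the 26 (26.9%, against 21.6% of all), and the median deviation of the channel probe sets was lowest there, at -0.08, against -0.06 on light pulse replicate 3. Without light pulse replicate 3 the median log2 fold change of the channel probe sets was 0.17 in place of -0.03, and 0 were called.

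**Figure D4:**
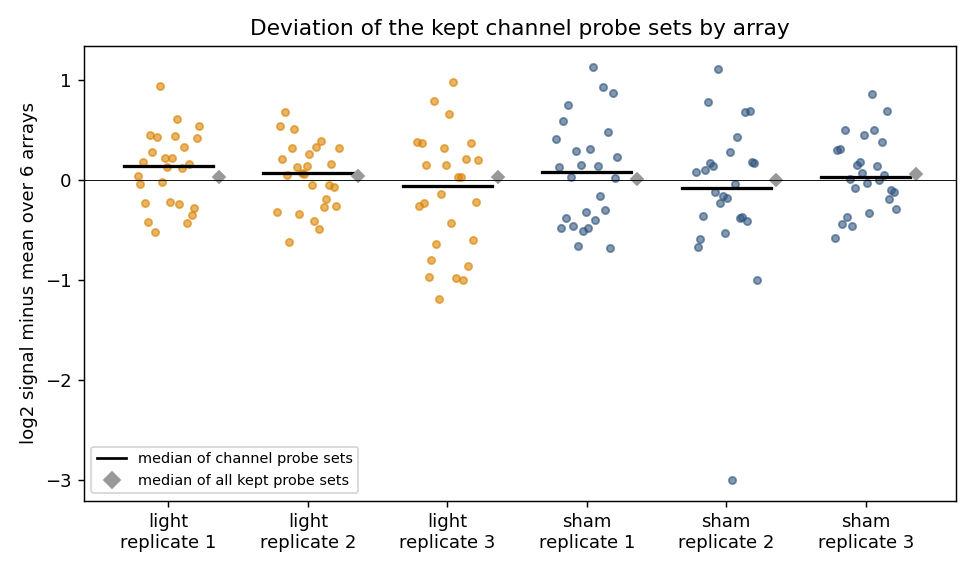
Log2 signal of each of the 26 kept channel probe sets minus its mean over the 6 arrays, by array, with light pulse arrays at left and sham light pulse arrays at right. Black bars are medians of the channel probe sets and grey diamonds medians of all kept probe sets, and the single point near -3 is Trpc7 at a signal of 8.7 on sham light pulse replicate 2.

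Partners and regulators of the channels were read from a list of 59 genes, of which 39 had a probe set and 20 a kept one. Of the 20 kept, 1 was called, against 0.0677% of all kept probe sets, and it had a positive fold change. This was Rrad, a small GTPase that binds calcium channel beta subunits and lowers calcium current, with signals of 1353, 1759 and 1796 after the light pulse, against 87.8, 37.1 and 62.1 after the sham light pulse. The log2 ratio of Rrad came to 4.79 ± 0.38 (SE), with an adjusted p of 2.69e-05 from limma. Cyber-T, rebuilt here from its description, gave Rrad the same log2 ratio with a standard error of 1.00 and an adjusted p of 0.146. The call was thus lost with the rebuilt test. The rebuild was not checked against the original software, so the loss is stated for the rebuild only. Rrad was already known to be among the called genes of these arrays, so its count is no independent evidence. Of the beta subunit genes, Cacnb4 was tested and not called, Cacnb1 and Cacnb2 were not kept, and Cacnb3 was not analysed here. The related GTPases Gem and Rem2 were not kept either, with at most 27.5 for Gem and 163.8 for Rem2.

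Among the other 19 partners, 12 had positive and 7 negative fold changes, and none was called (smallest adjusted p = 0.960 from limma). Ank3 encodes ankyrin-G, the scaffold that gathers sodium channels at the axon initial segment. Its signals were 1756, 911.4 and 1312.5 after the light pulse, against 2252, 2530 and 2095 after the sham light pulse, without overlap, or -0.84 ± 0.29 (SE) as a log2 fold change (adjusted p = 0.960 from limma). Camk2g, a subunit of the calcium/calmodulin-dependent kinase, had a log2 fold change of -0.38 ± 0.32 (SE). Pkd1, a polycystin membrane protein, had 221.0, 156.1 and 206.6 after the light pulse, against 93.8, 4.1 and 140.8 after the sham light pulse. The Pkd1 groups did not overlap, but 2 sham light pulse signals lay below 118.2 and the interval of the log2 fold change ran from -0.11 to 4.81. Over all 6739 kept genes, 5.74% had all light pulse signals above all sham light pulse signals and 4.38% had them all below. The calcium pump Atp2a2, which refills the endoplasmic reticulum, gave -0.09 ± 0.19 (SE) on that scale, and the sodium/calcium exchanger Slc8a1 gave -0.20 ± 0.30 (SE).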

How the data were processed

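RNA from the SCN was measured on 6 arrays, 3 after a light pulse and 3 after a sham light pulse, with groups and replicate numbers taken from the sample labels. The authors deposited MAS5 signals, a linear intensity per probe set that had been scaled array by array. Array scanner files and present calls were not used here. Signals were put on the log2 scale without an offset and tested by linear models with empirical Bayes moderation and an intensity trend (limma, version 3.58.1, two-sided; R, version 4.3.3), and p-values were adjusted by Benjamini-Hochberg over all kept probe sets (threshold 0.05). The filter by rank 3 signal replaced the authors' present calls. Gene names came from the platform annotation, in which 20380 probe sets had 1 symbol, 691 several and 1555 none, and 0 of the 60 channel symbols differed from RefSeq through the Entrez ID. Each gene is represented by its probe set of highest mean log2 signal.

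The members, lists and tests were chosen with earlier results of these data known. Signals on every array were given for the 2 genes of highest signal in each subfamily, up to 10 without overlap, the 3 of smallest p in each direction, and any called. Of the partners, called genes and the 2 of smallest p in each direction were named. Cacna1a, Clcn4, Trpc7, Atp2a2, Slc8a1, Gem and Rem2 lie outside this rule and were named after their values were seen. The alternatives tried were no filter, a stricter filter that kept 5000 probe sets, an offset of 50, quantile normalization, scaling to the 75th percentile, no trend, Cyber-T (rebuilt from its description, window 101, prior weight 10), a replicate block, leaving out probe sets with shared targets, and leaving out each array. The fits were also run on data simulated from the fitted model, which checks the calculation and not the assumptions of the model. Precision is limited by the number of arrays, 3 in each group.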

Additional observations from a re-analysis of the deposited data

How the results depend on the processing

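The count of 0 called channel probe sets held under all alternatives, with a smallest adjusted p of 0.892. At an unadjusted p under 0.05, Clcn3 alone appeared, without light pulse replicate 1 (1 of 26 probe sets, 3.85%, against 4.92% of all) and without sham light pulse replicate 2 (2 of 26, 7.69%, against 4.12%). Over all probe sets 7 were called, 4 without the intensity trend and 5 to 8 with an array left out. Light and sham arrays of the same replicate number had correlations of deviations of 0.0958, -0.192 and -0.129. Arrays of unlike number were not compared, so these values do not settle whether the arrays were paired. With the replicate block 6 probe sets and 0 channel probe sets were called. Rrad, the 1 called partner, was not called with the rebuilt Cyber-T (0 partners, log2 fold change 4.79, adjusted p = 0.146) and was called under every other alternative run, with adjusted p from 3.36e-06 to 0.0058. The median log2 fold change of the channel probe sets, -0.03, was 0.15 with no filter, 0.0912 without probe sets of shared targets, and -0.12 to 0.17 with an array left out. The 2 channel genes without overlap (9.09% of 22, against 10.1% of all kept genes) became 5 with no filter (8.33% of 60, against 10.3%), 1 with the filter of 5000 (10.0% of 10, against 9.12%), 0 with quantile normalization (against 9.51%) and 3 with the common 75th percentile (13.6%, against 10.1%). With an array left out they were 3 to 7 of 22 (13.6% to 31.8%), where 18.5% to 21.2% of all genes had no overlap with fewer arrays compared.

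Of 19 named genes 10 kept the sign of their fold change in each fit that held them, but 8 of the 10 had no value under the filter of 5000 and 2 had none without probe sets of shared targets. Of these 10, Trpc4 came closest to 0 with an array left out (-0.38 to -0.0013), Hcn3 ran from 0.0774 to 0.57, Scn1a from 0.26 to 0.91 and Cacnb4 from -1.18 to -0.47. The log2 fold changes of the other 9, with an array left out, ran from -0.14 to 0.35 for Cacna1d, -0.16 to 0.47 for Cacna2d2, -0.37 to 0.0621 for Cacna2d3, -0.33 to 0.23 for Cacng5, -0.26 to 0.0789 for Clcn5, -0.29 to 0.25 for Scn2a, -0.20 to 0.0092 for Scn3b, -0.97 to 0.10 for Scn8a and -0.34 to 0.45 for Trpc4ap. With the mean over its kept probe sets Clcn5 had 0.33. The cause of these changes was not tested. The 62 channel probe sets that were not kept had standard errors from 0.792 to 1.44 in the fit with no filter, against 0.231 to 1.00 for the 26 kept in the same fit.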

Other observations

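Among the 62 channel probe sets that were not kept, 4 had all light pulse signals above all sham light pulse signals and 0 had them all below, where 7.58% and 2.95% of all 12286 probe sets not kept did, and 0 had an unadjusted p under 0.05 in the limma fit with no filter. They were chosen for this description after their values were seen. Trpm6, an epithelial magnesium channel, had 60.7, 35.8 and 89.4 after the light pulse and 24.2, 15.5 and 6.3 after the sham light pulse. Trpc5, a Trpc subunit of brain neurons, had 120.5, 54.7 and 71.2 after the light pulse and 12.5, 30.9 and 52.0 after the sham light pulse. Trpv4, an osmosensitive cation channel, had 22.2, 16.9 and 7.5 after the light pulse and 7.3, 5.8 and 3.0 after the sham light pulse, and a Cacnb1 probe set had 14.3, 8.5 and 11.5 after the light pulse and 5.2, 5.1 and 6.9 after the sham light pulse. Only Trpc5 reached the lowest value kept, 118.2, and on 1 array, so no fold change is drawn from these signals.

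Of the 22 channel genes with several probe sets, 14 had some kept and some not, 7 had none kept and 1, Clcn4, had all kept. For Scn3b the 2 probe sets read 2517.5, 2681.5 and 2313 against 13.1, 3.2 and 27.3 on the same light pulse arrays.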
